A study of Mus musculus with 8 samples.

Results

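The genes described here are 37 axon guidance and adhesion genes of the embryonic mouse retina, chosen by gene symbol from the 57180 rows of the count table: the Slits and their Robo receptors, netrin 1 with its receptors, semaphorins with plexins and neuropilins, the L1 and contactin families of adhesion molecules, Ephb1 with Zic2, and Nrn1. They comprise 12 ligands, 15 receptors, 8 adhesion molecules, 1 transcription factor and 1 membrane-anchored surface protein. Of the 37, 36 passed the filter on low counts and were among the 14730 genes tested, and Slit3 did not.

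Isolated retinas were profiled by 3′-Tag-Seq, which reads a short stretch near the 3′ end of every captured mRNA, and counts therefore follow the number of mRNAs more than their length. The first group was Rax-SmoCKO (Rax-Cre; Smo CKO/CKO, 4 libraries), in which Cre driven from a Rax BAC transgene removes the floxed alleles of Smo, the membrane protein that carries the Sonic hedgehog signal into the cell. The second was control (Smo CKO/CKO without Cre, 4 libraries), so both groups carried the floxed alleles on an albino CD-1 background. Only Rax-SmoCKO carried the transgene, and the effect of the transgene and the effect of losing Smo cannot be told apart. Rax-Cre acts early and throughout the optic vesicle, so the floxed alleles are lost from the optic stalk and pigment epithelium as well as the retina. The study's results place the samples at E13.5, whereas the age labels step by 1 day, from embryonic day 13 in control replicate 1 to 20 in Rax-SmoCKO replicate 4. If those labels hold, every Rax-SmoCKO library is older than every control and age and genotype cannot be told apart. The study's methods count 1 more Rax-SmoCKO sample than the 4 analysed here. The sources do not say whether a library is 1 embryo or a pool, so p-values measure the spread between these libraries, which may be technical.

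Retinal ganglion cells (RGCs) are the projection neurons of the retina, and their axons grow along its inner surface to the optic disc, leave the eye through the optic nerve and sort at the optic chiasm. Growth cones are steered by secreted or membrane-bound ligands that attract or repel them through matching receptors, while immunoglobulin-type adhesion molecules bind axons to each other and to their path. Netrin 1 at the optic disc, acting through Dcc, is needed for RGC axons to leave the eye, and Zic2 with Ephb1 directs the axons of the ventrotemporal retina away from the midline.

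Total counts were 3026843 to 4615667 per Rax-SmoCKO library and 3017480 to 4328567 per control library, and levels are given as CPM, the usual count rate after scaling each library to a common size with TMM. Smo itself had 2.85 to 4.95 CPM in Rax-SmoCKO and 16.3 to 23.8 CPM in control, a log2 fold change of -2.50, and every Rax-SmoCKO library was below every control, as labelled. Some libraries carried RNA of other tissues. Summed over 16 lens genes, the Rax-SmoCKO libraries had 8.64 to 373 CPM, control replicate 2 had 15589 CPM and the other controls 6.37 to 10.9 CPM. Rax-SmoCKO replicate 2 was high for 9 periocular mesenchyme genes (348 CPM, against 50.9 to 168 CPM in controls) and 8 erythroid genes (3796 CPM, against 909 to 1702 CPM in controls). The 8 pigment epithelium genes summed to 195, 428, 644 and 106 CPM in Rax-SmoCKO replicates 1 to 4, against 117, 65.3, 125 and 282 CPM in control replicates 1 to 4. All 6 tested had a log2 fold change above 0 (median 1.22), and edgeR called 0. At an unadjusted p under 0.05, 4 of them were higher (4.8% of all tested genes). Y-linked genes were at 240.0 and 243 CPM in Rax-SmoCKO replicates 3 and 2 and at or near 0 in every other library. Xist was at 0 and 0.43 CPM in Rax-SmoCKO replicates 3 and 2, 553 and 462 CPM in replicates 1 and 4, and 438 to 791 CPM in controls. By these genes Rax-SmoCKO replicates 2 and 3 were male and every other library female, so sex was not balanced between the groups.

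No member passed the test in edgeR's quasi-likelihood fit (Benjamini-Hochberg adjusted p under 0.05), where 0.095% of all tested genes did. Yet receptors and adhesion molecules mostly lay above control in Rax-SmoCKO retinas. Most ligands did not, although this did not hold without control replicate 2. At an unadjusted p under 0.05, 13 members were higher in Rax-SmoCKO and 0 lower, against 4.8% higher and 4.68% lower among all tested genes. In 8 members the lowest Rax-SmoCKO value was higher than the highest control value (22.2% of the 36, against 2.68% of all tested genes), and in 0 members the groups were apart in the other direction (2.95% of all tested genes). Those 8 were Unc5c, Nrp1, Plxna2, Plxnb1, Plxnd1, L1cam, Ncam1 and Nrn1. The members were chosen with earlier results of these data known, so the shares set against all tested genes are a description only. For each of the 8 the two-sided exact permutation p over libraries was 0.0286, the smallest that 4 against 4 allow. Groups fully apart always give that value, so it adds nothing to the separation by which the 8 were picked. DESeq2 called 2 members, Ncam1 and Nrn1 (0.387% of all tested genes), and limma-voom called 0 (0.109% of all tested genes).

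The log2 fold change (Rax-SmoCKO over control) was above 0 for 26 of the 36 tested members and below 0 for 10, with a median of 0.17, whereas 49.6% of all tested genes were above 0 and their median was -0.0018. By role, 14 of 15 receptors (median 0.22), 7 of 8 adhesion genes (median 0.26) and 4 of 11 tested ligands (median -0.13) were above 0. The 13 members at an unadjusted p under 0.05 were 7 receptors, 5 adhesion genes and Nrn1. Receptors held 5 of the 8 members without overlap, adhesion genes held 2 and ligands held 0. Leaving out each library gave 13 to 14 receptors, 7 adhesion genes and 3 to 6 ligands above 0. Without control replicate 2 it was 6 of the 11 ligands. The difference between roles was not tested.

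**Figure D1:**
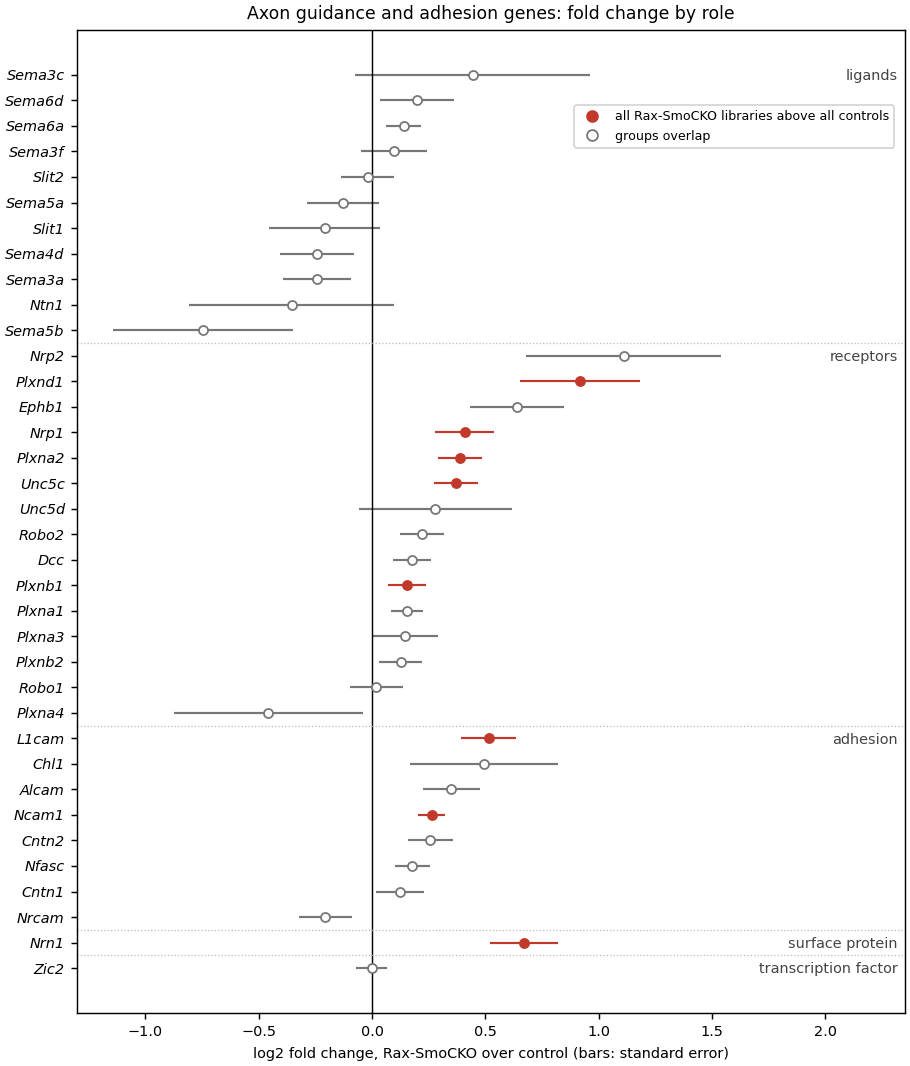
Log2 fold change (Rax-SmoCKO over control, horizontal axis) of the 36 tested members, grouped by role down the page, with bars of 1 standard error. Red points are the 8 members whose groups do not overlap. Receptors and adhesion genes sit mostly right of 0 (14 of 15 and 7 of 8), ligands mostly left (7 of 11).

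Summed levels showed the same division. The 15 receptors summed to 949.7, 936, 842 and 1007 CPM in Rax-SmoCKO replicates 1 to 4, against 779, 778, 791 and 813 CPM in control replicates 1 to 4. No library of one group reached the other. The 8 adhesion genes summed to 1903, 1840.3, 1863 and 2252 CPM in Rax-SmoCKO libraries 1 to 4 and 1698, 1714, 1581 and 1704 CPM in control libraries 1 to 4, again with no overlap, but over the 7 without Ncam1 the ranges met (707 to 886 CPM in Rax-SmoCKO and 641 to 713 CPM in control). The 12 ligands summed to 588, 549, 517 and 537 CPM in Rax-SmoCKO replicates 1 to 4, against 526, 616, 558 and 499.7 CPM in control replicates 1 to 4, and these ranges overlapped.

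RGC marker genes were also mostly higher in Rax-SmoCKO retinas. Summed over 26 of them, Rax-SmoCKO replicates had 9026, 8136, 8821 and 11315 CPM, against 7302, 7280.4, 7612 and 8548 CPM in control replicates. Rax-SmoCKO replicate 4 was the highest of all, and only Rax-SmoCKO replicate 2 came below a control. Of the 25 tested, 24 had a log2 fold change above 0 (median 0.31), against 49.6% of all tested genes. At an unadjusted p under 0.05, 15 were higher (4.8% of all tested genes). Of the 25, edgeR called 0 and DESeq2 called 3 (0.095% and 0.387% of all tested genes). The marker lists too were chosen with earlier results of these data known, so such shares are a description only. The 14 progenitor genes summed to 10380 to 11274 CPM in Rax-SmoCKO and to 11921 to 12504 CPM in control. Without Ccnd1, the cyclin D1 gene, the sums were 8241 to 9067 CPM in Rax-SmoCKO and 8665 to 9418 CPM in control, which overlap. Of the 14, 12 had a log2 fold change below 0 (median -0.11). At an unadjusted p under 0.05, 5 were lower (4.68% of all tested genes), and edgeR called 1, Ccnd1 (0.095% of all tested genes). In such bulk samples fewer cells of a type and less RNA per cell cannot be told apart, and the part of RGC abundance in the values of the 37 genes was not tested. Rax-SmoCKO replicate 4 was also the highest Rax-SmoCKO library for 7 of the 13 members at an unadjusted p under 0.05 (Robo2, L1cam, Nfasc, Cntn2, Ncam1, Ephb1 and Nrn1). It was the lowest for Unc5c, Nrp2 and Alcam, also among the 13. Over the 36 tested members it was the highest Rax-SmoCKO library for 12.

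**Figure D2:**
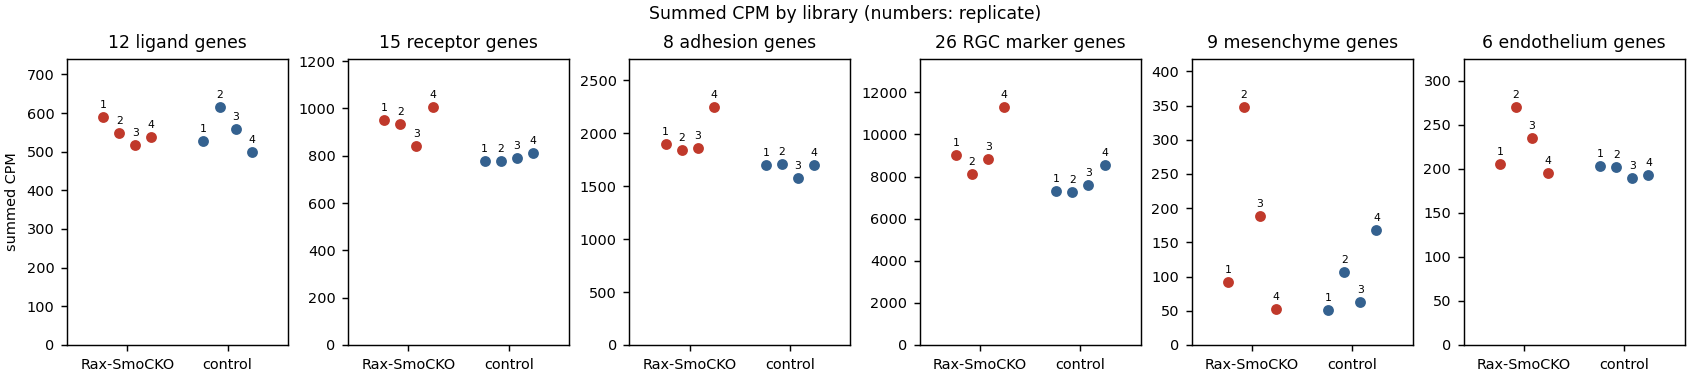
Summed CPM of member ligands, receptors and adhesion genes and of RGC, mesenchyme and endothelium markers in each library (vertical axes), Rax-SmoCKO left and control right, each point 1 library numbered by replicate. Receptor and adhesion sums do not overlap between groups (842 to 1007 against 778 to 813 CPM, and 1840 to 2252 against 1581 to 1714 CPM), whereas ligand sums do.

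Among the secreted ligands, Slit2, a repellent that keeps RGC axons on their path through Robo receptors, was the most abundant Slit, at 155 to 206 CPM in Rax-SmoCKO and 136 to 197 CPM in control (log2 fold change -0.02 ± 0.12 SE, adjusted p = 0.975). Slit1, also a repellent, had a log2 fold change of -0.21 (adjusted p = 0.841), with 5.65 to 9.51 CPM in Rax-SmoCKO and 5.66 to 10.2 CPM in control. Slit3, of the same family, was close to undetected, at 0 to 1.51 CPM in Rax-SmoCKO and 0.255 to 2.36 CPM in control. The Slit levels thus overlapped between groups.

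Ntn1, the netrin attractant of the optic disc, had 0.476, 3.44, 1.88 and 2.99 CPM in Rax-SmoCKO libraries 1 to 4 and 3.64, 2.83, 2.04 and 2.80 CPM in control libraries 1 to 4. Rax-SmoCKO replicate 1 was the lowest library by far, replicate 3 was just under the lowest control, and the other 2 were within the control range. The log2 fold change was -0.35 ± 0.45 SE (adjusted p = 0.853) and was 0.0050 without Rax-SmoCKO replicate 1. These levels rest on a mean of 8.5 counts per Rax-SmoCKO library and 10.25 per control library, so only a large difference was detectable at this depth. Optic stalk genes, 3 in all, summed to 49.2 to 67.6 CPM in Rax-SmoCKO and 47.3 to 67.8 CPM in control. Most of that sum was Vax2 (mean 53.1 CPM in Rax-SmoCKO and 52.2 CPM in control), so it says little of the others. Pax2, a factor of the stalk and disc, averaged 3.90 and 4.66 CPM in the same order (log2 fold change -0.18). Vax1 averaged 0.221 and 0.635 CPM and was not tested.

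Of the 8 semaphorins, 4 had a log2 fold change above 0 and 4 below, and 0 reached an unadjusted p under 0.05. Sema6a, a transmembrane semaphorin that binds A-type plexins, was the most abundant, at 202, 180.3, 177 and 185 CPM in Rax-SmoCKO replicates 1 to 4, against 155, 177, 186 and 156 CPM in control replicates 1 to 4. Rax-SmoCKO replicate 1 was the highest library and control replicates 1 and 4 were the lowest, with the rest intermixed (log2 fold change 0.14 ± 0.08 SE, adjusted p = 0.592). Sema6d, which at the mouse chiasm acts on crossing axons together with Plxna1 and Nrcam, had 15.7, 25.2, 20.2 and 20.3 CPM in Rax-SmoCKO libraries 1 to 4 and 15.5, 17.2, 16.6 and 21.6 CPM in control libraries 1 to 4. The groups overlapped, and the log2 fold change was 0.20 ± 0.16 SE (adjusted p = 0.747). Sema3a, a secreted repellent read through Nrp1, averaged 52.8 ± 8.52 CPM in Rax-SmoCKO and 61.7 ± 14.5 CPM in control (SD, n = 4 each), and its log2 fold change of -0.24 was -0.055 without control replicate 2. Sema5b, which in the mouse retina keeps neurites within their layer, had the lowest log2 fold change of the 36 tested members, -0.75 ± 0.40 SE (adjusted p = 0.581), with 0.997 to 1.90 CPM in Rax-SmoCKO and 1.12 to 3.64 CPM in control. The remaining 4 were the transmembrane Sema4d (-0.24) and Sema5a (-0.13) and the secreted Sema3f (0.10) and Sema3c (0.44), with adjusted p from 0.673 to 0.88.

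The receptors of those ligands are taken in the same order. Robo2, the main Slit receptor of RGC axons, had 230.5, 178, 198 and 254 CPM in Rax-SmoCKO replicates 1 to 4, against 185, 177, 185 and 189 CPM in control replicates 1 to 4. Rax-SmoCKO replicates 1, 3 and 4 exceeded all controls, and replicate 2 was within the control range. The log2 fold change was 0.22 ± 0.10 SE (adjusted p = 0.505), and 0.13 without Rax-SmoCKO replicate 4. Robo1, another Slit receptor, at 30.7 to 36.6 CPM in Rax-SmoCKO and 28.02 to 40.3 CPM in control, had a log2 fold change of 0.02.

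Dcc, the netrin receptor that mediates exit of RGC axons from the eye, was the most abundant of the netrin family, at 329, 291, 253 and 327 CPM in Rax-SmoCKO libraries 1 to 4 and 272, 259, 279 and 251 CPM in control libraries 1 to 4. Rax-SmoCKO replicates 1, 2 and 4 exceeded the highest control, and replicate 3 lay among the controls. The log2 fold change was 0.18 ± 0.08 SE (adjusted p = 0.53). Unc5c, a netrin receptor of the repulsive kind, on chr3:141465216-141834924 (GRCm38), had 49.00, 41.3, 42.5 and 40.9 CPM in Rax-SmoCKO replicates 1 to 4, against 30.1, 37.2, 34.6 and 31.6 CPM in control replicates 1 to 4. The groups did not overlap, and the closest pair was Rax-SmoCKO replicate 4 and control replicate 2. Unc5c averaged 43.4 ± 3.78 CPM in Rax-SmoCKO and 33.4 ± 3.18 CPM in control (SD, n = 4 each), giving a log2 fold change of 0.37 ± 0.10 SE (edgeR unadjusted p = 0.0022, adjusted p = 0.244). Unc5d, of the same receptor family, was low, at 1.99 to 2.38 CPM in Rax-SmoCKO and 1.18 to 2.55 CPM in control (log2 fold change 0.28, adjusted p = 0.846).

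Nrp1, the neuropilin that binds class 3 semaphorins and vascular endothelial growth factor, had 50.9, 66.3, 49.997 and 65.5 CPM in Rax-SmoCKO libraries 1 to 4 and 32.7, 45.5, 46.1 and 49.5 CPM in control libraries 1 to 4. The groups did not overlap, although Rax-SmoCKO replicate 3 and control replicate 4 were almost level. It averaged 58.2 ± 8.92 CPM in Rax-SmoCKO and 43.5 ± 7.38 CPM in control (SD, n = 4 each), and the log2 fold change was 0.41 ± 0.13 SE (adjusted p = 0.358). Nrp2, its paralog and a receptor for Sema3f, had 12.4, 41.5, 18.8 and 8.97 CPM in Rax-SmoCKO replicates 1 to 4, against 7.27, 6.83, 8.41 and 16.2 CPM in control replicates 1 to 4. Its log2 fold change of 1.11 ± 0.43 SE (adjusted p = 0.456) was the highest of the 36 tested members, yet the groups overlapped and it was 0.48 without Rax-SmoCKO replicate 2, 0.34 without replicate 2 of both groups, and 0.16 without Rax-SmoCKO replicates 2 and 3. The 3 libraries highest in Nrp2 were also the 3 highest in the 9 periocular mesenchyme genes, which summed to 91.3, 348, 189 and 52.2 CPM in Rax-SmoCKO libraries 1 to 4 and 50.9, 107, 62.2 and 168 CPM in control libraries 1 to 4, and in the 8 pigment epithelium genes. The part of these tissues in Nrp2 was not tested.

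The 7 plexins, the signalling receptors of semaphorins, had 6 log2 fold changes above 0 (49.6% of all tested genes). In 3 plexins, Plxnd1, Plxna2 and Plxnb1, the groups did not overlap, with Rax-SmoCKO higher (2.68% of all tested genes). These shares too are a description only. Plxnd1, known from endothelial cells and axon tracts and a receptor for Sema3e, had 11.7, 23.5, 11.02 and 12.96 CPM in Rax-SmoCKO replicates 1 to 4, against 7.60, 7.31, 6.37 and 10.4 CPM in control replicates 1 to 4. Rax-SmoCKO replicate 2 was far above the rest, but Rax-SmoCKO replicate 3 too was above the highest control. It averaged 14.8 ± 5.84 CPM in Rax-SmoCKO and 7.91 ± 1.72 CPM in control (SD, n = 4 each), and its log2 fold change of 0.92 ± 0.26 SE (adjusted p = 0.286) was 0.58 without Rax-SmoCKO replicate 2 (adjusted p = 0.374). Summed over 6 endothelial genes, Rax-SmoCKO libraries had 195 to 270.4 CPM and control libraries 189 to 203 CPM, highest in Rax-SmoCKO replicate 2, and the part of endothelial cells in Plxnd1 was not tested.

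Plxna2, an A-type plexin on chr1:194618218-194816869, had 28.5, 32.1, 30.9 and 29.9 CPM in Rax-SmoCKO libraries 1 to 4 and 24.8, 22.2, 21.7 and 24.4 CPM in control libraries 1 to 4. The groups were well apart, and within each the libraries were close together. It averaged 30.4 ± 1.49 CPM in Rax-SmoCKO and 23.2 ± 1.57 CPM in control (SD, n = 4 each), and the log2 fold change was 0.39 ± 0.10 SE (unadjusted p = 0.0018, adjusted p = 0.234). Plxnb1, a receptor for Sema4d, had 39.7, 38.7, 38.7 and 36.9 CPM in Rax-SmoCKO replicates 1 to 4, against 35.4, 35.6, 31.1 and 36.4 CPM in control replicates 1 to 4. These groups were only narrowly apart, the log2 fold change was 0.16 ± 0.08 SE (adjusted p = 0.586), and the unadjusted p of 0.0867 was above 0.05.

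Plxna1, the A-type plexin that acts with Sema6d and Nrcam at the chiasm, was the most abundant of the plexins and neuropilins, at 63.5, 55.3, 57.3 and 59.5 CPM in Rax-SmoCKO libraries 1 to 4 and 51.2, 52.8, 56.04 and 50.9 CPM in control libraries 1 to 4. Rax-SmoCKO replicates 1, 3 and 4 exceeded all controls, and replicate 2 lay just below control replicate 3 (log2 fold change 0.15 ± 0.07 SE, adjusted p = 0.53). Plxna3, another A-type plexin (0.15), and Plxnb2, a receptor for class 4 semaphorins (0.13), had similar log2 fold changes with adjusted p of 0.807 and 0.713. Plxna4, also A-type, was the 1 receptor below 0 (-0.46, adjusted p = 0.778, and -0.044 without control replicate 2), with 3.09 to 4.95 CPM in Rax-SmoCKO and 1.78 to 8.96 CPM in control.

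**Figure D3:**
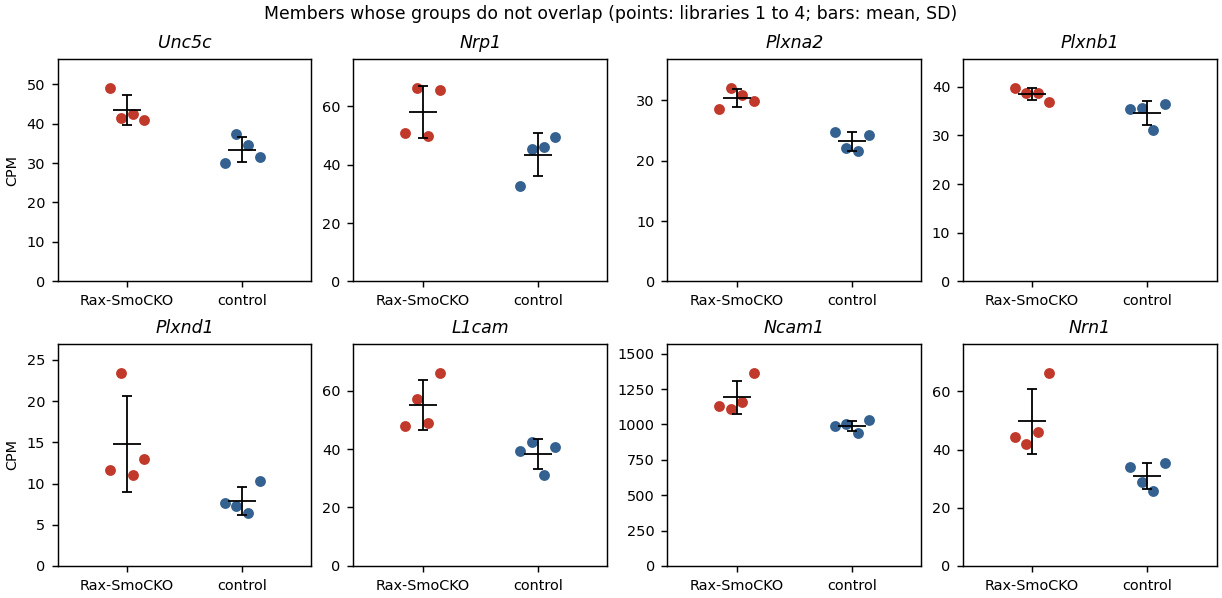
CPM in each library of the 8 members whose groups do not overlap, Rax-SmoCKO left and control right, with the mean and SD (n = 4 each). In each panel the lowest Rax-SmoCKO library lies above the highest control, for Ncam1 at 1111 against 1030 CPM.

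Of the adhesion molecules, L1cam, which binds growing axons into bundles, lies on chrX:73853778-73896105 and had 48.05, 57.2, 48.9 and 66.1 CPM in Rax-SmoCKO replicates 1 to 4, against 39.3, 42.4, 31.1 and 40.6 CPM in control replicates 1 to 4. The groups were clearly apart, with Rax-SmoCKO replicate 4 the highest and control replicate 3 the lowest. It averaged 55.1 ± 8.45 CPM in Rax-SmoCKO and 38.4 ± 5.02 CPM in control (SD, n = 4 each), giving a log2 fold change of 0.51 ± 0.12 SE (edgeR adjusted p = 0.192, DESeq2 adjusted p = 0.0731). L1cam overlaps Arhgap4 on its own strand, and 26 of the 37 members overlap an annotated gene on either strand, so the assignment of reads in such stretches is uncertain.

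The other L1-family genes had log2 fold changes on both sides of 0. Nfasc, neurofascin, the most abundant of the family over these libraries, had 149.8, 144, 134 and 164 CPM in Rax-SmoCKO libraries 1 to 4 and 133, 118, 141 and 131 CPM in control libraries 1 to 4. Rax-SmoCKO replicates 1, 2 and 4 exceeded all controls, and the log2 fold change was 0.18 ± 0.08 SE (adjusted p = 0.505). Nrcam, which helps RGC axons cross the chiasm in mice, had 112, 83.3, 95.7 and 106 CPM in Rax-SmoCKO replicates 1 to 4, against 122, 136, 96.8 and 101 CPM in control replicates 1 to 4. It was the 1 adhesion gene below 0, at -0.21 ± 0.12 SE (adjusted p = 0.618), and its groups overlapped. Chl1, the close homolog of L1, had a log2 fold change of 0.49 ± 0.33 SE (adjusted p = 0.668).

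Ncam1, the neural cell adhesion molecule, was the most abundant of the 37, at 1129, 1111, 1155 and 1366 CPM in Rax-SmoCKO libraries 1 to 4 and 989, 1001, 939.7 and 1029.6 CPM in control libraries 1 to 4. The groups did not overlap, and Rax-SmoCKO replicate 4 stood above the other 3. It averaged 1190.3 ± 118 CPM in Rax-SmoCKO and 990.0 ± 37.5 CPM in control (SD, n = 4 each), and its log2 fold change was 0.26 ± 0.06 SE (edgeR adjusted p = 0.172, DESeq2 adjusted p = 0.0387). Without Rax-SmoCKO replicate 4 the log2 fold change was 0.19 (edgeR adjusted p = 0.196).

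Cntn2, a contactin on early RGC axons also known as TAG1, had 303, 274, 234 and 352 CPM in Rax-SmoCKO replicates 1 to 4, against 251, 244, 239 and 238 CPM in control replicates 1 to 4. The controls were close to each other, 3 Rax-SmoCKO libraries were above them and replicate 3 was just below, for a log2 fold change of 0.26 ± 0.10 SE (adjusted p = 0.456). Without Rax-SmoCKO replicate 4 it was 0.15. Cntn1, a related contactin, had a log2 fold change of 0.12 (adjusted p = 0.757). Alcam, an adhesion molecule of fasciculating RGC axons, had 45.2, 49.5, 47.3 and 35.9 CPM in Rax-SmoCKO libraries 1 to 4 and 36.4, 41.01, 28.02 and 34.7 CPM in control libraries 1 to 4. Rax-SmoCKO replicate 4 lay among the controls and the other 3 were above them, and the log2 fold change was 0.35 ± 0.13 SE (adjusted p = 0.42).

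Nrn1, neuritin, a small anchored protein that promotes neurite growth, gave the smallest p of the 36 tested members. It lies on chr13:36725361-36735131, overlaps Fars2 on the opposite strand, and had 44.5, 41.95, 45.96 and 66.5 CPM in Rax-SmoCKO replicates 1 to 4, against 34.1, 28.99, 25.7 and 35.3 CPM in control replicates 1 to 4. Even the lowest Rax-SmoCKO library was above the highest control, and replicate 4 stood well apart from the other 3. Nrn1 averaged 49.7 ± 11.3 CPM in Rax-SmoCKO and 31.01 ± 4.45 CPM in control (SD, n = 4 each), giving a log2 fold change of 0.67 ± 0.15 SE (edgeR adjusted p = 0.158, DESeq2 adjusted p = 0.0202). It was 0.51 without Rax-SmoCKO replicate 4 (edgeR adjusted p = 0.235).

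Zic2 and Ephb1, the transcription factor and the receptor of the uncrossed projection, differed in their values. Zic2 had 70.9, 74.01, 84.9 and 74.5 CPM in Rax-SmoCKO libraries 1 to 4 and 78.03, 72.8, 78.97 and 74.5 CPM in control libraries 1 to 4. The control range lay within the Rax-SmoCKO range, and the log2 fold change was -0.0018 ± 0.07 SE (adjusted p = 0.998). Ephb1, a receptor for ephrin-B2, had 20.2, 34.6, 29.03 and 46.2 CPM in Rax-SmoCKO replicates 1 to 4, against 19.8, 21.4, 17.6 and 23.5 CPM in control replicates 1 to 4. Rax-SmoCKO replicates 2, 3 and 4 lay above all controls and replicate 1 among them. Ephb1 averaged 32.5 ± 10.9 CPM in Rax-SmoCKO and 20.6 ± 2.51 CPM in control (SD, n = 4 each), and its log2 fold change was 0.64 ± 0.21 SE (edgeR adjusted p = 0.359, DESeq2 adjusted p = 0.25), and 0.44 without Rax-SmoCKO replicate 4. Whether Ephb1 and Zic2 differ in their response was not tested.

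**Figure D4:**
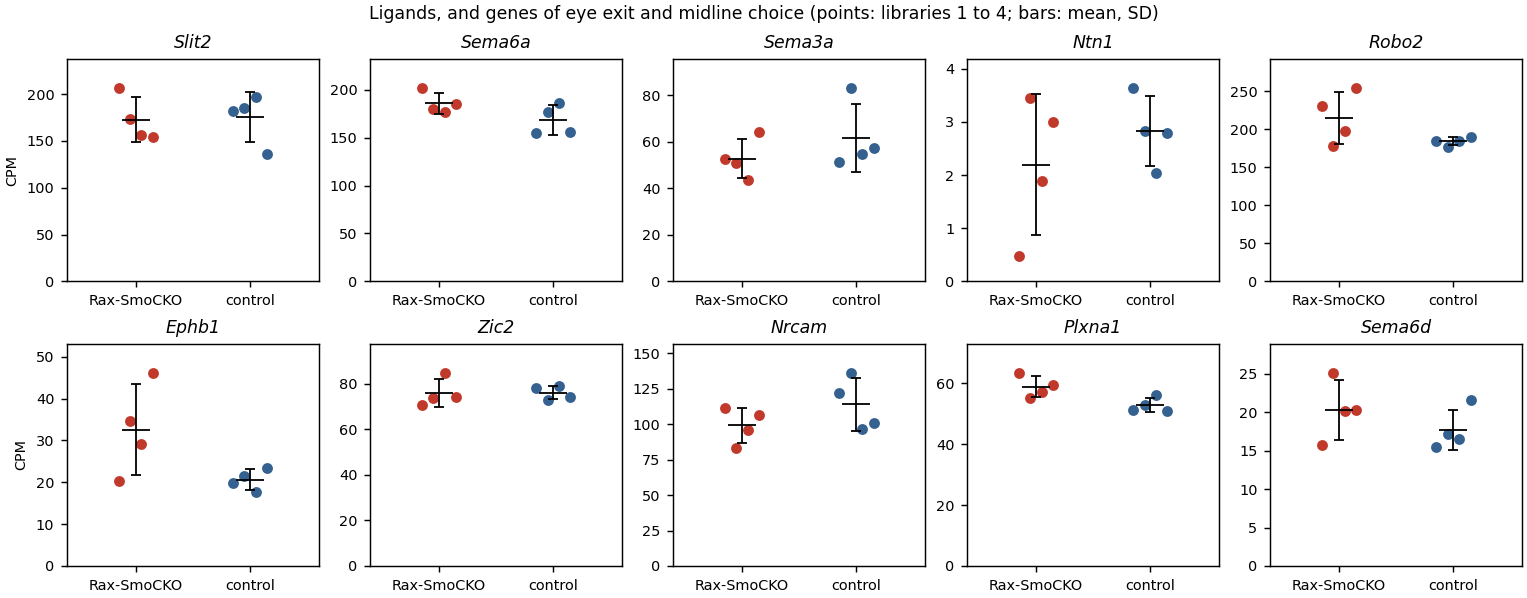
CPM in each library of some ligands and of genes of exit from the eye and of the chiasm choice, Rax-SmoCKO left and control right, with the mean and SD (n = 4 each). The Zic2 ranges overlap (70.9 to 84.9 CPM in Rax-SmoCKO and 72.8 to 78.97 CPM in control), and 3 of 4 Ephb1 values in Rax-SmoCKO lie above all controls.

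**Figure D5:**
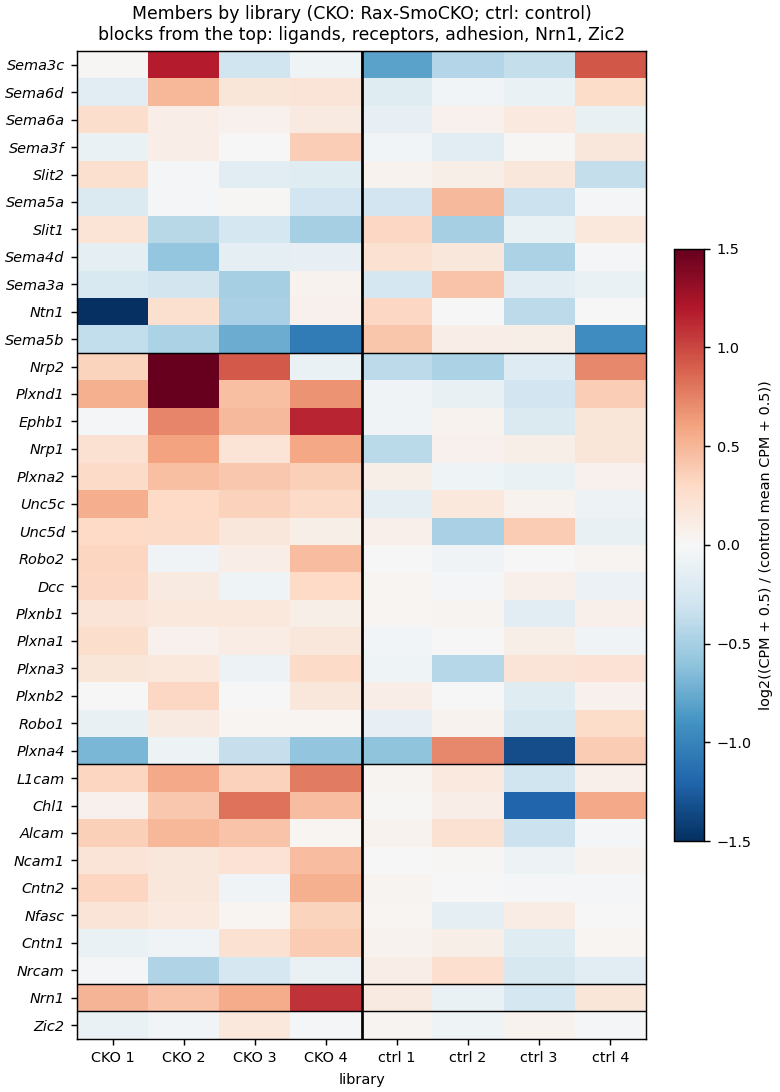
Log2 ratio of each library's CPM to the control mean, with a small constant added to both, members down the page and libraries across, Rax-SmoCKO left. The colour scale stops at 1.5 either way, where Nrp2 and Plxnd1 in Rax-SmoCKO replicate 2 and Ntn1 in Rax-SmoCKO replicate 1 saturate.

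The library-wide pattern can be read from the median over the tested members of the log2 ratio to the control mean. A small constant was added to both CPM values before the ratio was taken. It was 0.19, 0.16, 0.086 and 0.17 in Rax-SmoCKO replicates 1 to 4, against 0.021, 0.013, -0.13 and 0.048 in control replicates 1 to 4. The lowest Rax-SmoCKO value was above the highest control value. As the members were chosen with earlier results known, this is a description only.

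Among 96 other guidance and adhesion genes, 87 were tested, 64 had a log2 fold change above 0 (median 0.10), and 0 were called by edgeR. At an unadjusted p under 0.05, 15 were higher and 1 lower (4.8% and 4.68% of all tested genes). The groups did not overlap in 9, with Rax-SmoCKO higher in 8 and lower in 1, Farp2 (2.68% and 2.95% of all tested genes). By list, 15 of 20 tested Eph and ephrin genes were above 0, with the smallest p in Epha4, an EphA receptor (log2 fold change 0.34, adjusted p = 0.244). Of the ephrins, which are ligands, Efnb3, Efna5, Efnb1, Efna2, Efnb2 and Efna1 were above 0 and Efna4 and Efna3 below. The wider lists were not split by role. Of the other netrin-pathway genes 7 of 10 were above 0, led by Rgmb, a repulsive guidance molecule (0.26, adjusted p = 0.30), and Dscam, an adhesion molecule of retinal neurites (0.41, adjusted p = 0.456). Other adhesion genes gave 14 of 15 above 0, led by Cntnap2 (0.26, adjusted p = 0.277), Ncam2 (0.89, adjusted p = 0.359) and Cadm2 (0.23, adjusted p = 0.384). Of the other Slit and Robo pathway genes 5 of 5 were above 0, with Srgap1, which acts downstream of Robo, at 0.23 (adjusted p = 0.456). Other semaphorins and plexins gave 7 of 13, and 0 of them reached an unadjusted p under 0.05.

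The RefSeq promoter windows (250 bases before to 50 after a RefSeq start, GRCm38.p6) of 3 members without overlap are shown, chosen after their values were seen, because each holds 1 of the motifs searched. A window was found for 26 of the 37 members, 6 of them among the 8 without overlap. Letters were searched on both strands. The core of the Gli site, GACCACC, was in 2.8% of 32851 windows, and among members only in Plxna2, where its reverse complement is in capitals. The Ebf motif, TCCC and GGGA around any 2 bases, was in 0.904% of windows, and among members in Plxnb1 and Chl1. The E-box CAGCTG was in 16.3% of windows, and among members in Nfasc, Robo2 and Sema4d. The E-box CAGATG was in 17.2% of windows, and among members in L1cam and Sema3c, and the full Gli site, GACCACCCA, which contains the core, was in 0.253% of windows and 0 member windows. Plxna2 is on the plus strand at chr1:194619579-194619878, Plxnb1 on the plus strand at chr9:109095186-109095485 and L1cam on the minus strand at chrX:73880741-73881040, with the motif in capitals. These RefSeq starts lie inside the GENCODE gene spans, 1611 bases from the gene's 5′ end for Plxna2, 15315 for L1cam and 47 for Plxnb1, and L1cam has 2 RefSeq windows of which 1 is shown. A match describes these letters and is not a site of binding.
Plxna2: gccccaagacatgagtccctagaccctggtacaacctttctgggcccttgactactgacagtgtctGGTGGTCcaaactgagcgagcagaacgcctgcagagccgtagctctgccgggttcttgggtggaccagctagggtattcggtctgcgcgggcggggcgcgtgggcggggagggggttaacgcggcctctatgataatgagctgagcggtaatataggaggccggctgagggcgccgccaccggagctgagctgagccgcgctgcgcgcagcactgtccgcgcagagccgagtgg
Plxnb1: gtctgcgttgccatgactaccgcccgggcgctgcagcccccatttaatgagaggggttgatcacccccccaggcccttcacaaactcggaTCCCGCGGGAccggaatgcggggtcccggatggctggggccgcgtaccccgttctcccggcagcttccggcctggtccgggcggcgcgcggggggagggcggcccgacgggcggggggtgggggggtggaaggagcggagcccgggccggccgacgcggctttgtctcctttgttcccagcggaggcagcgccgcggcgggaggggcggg
L1cam: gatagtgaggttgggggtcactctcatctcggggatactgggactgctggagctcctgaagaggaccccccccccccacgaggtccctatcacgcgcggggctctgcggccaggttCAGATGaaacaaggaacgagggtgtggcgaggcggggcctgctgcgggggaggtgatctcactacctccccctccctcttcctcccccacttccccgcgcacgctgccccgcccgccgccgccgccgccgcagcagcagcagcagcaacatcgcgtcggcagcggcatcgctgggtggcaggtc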

How the data were processed

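Retinas were profiled by 3′-Tag-Seq with a forward QuantSeq kit in 4 Rax-SmoCKO and 4 control libraries. The authors trimmed and aligned the reads and deposited whole-number counts per gene, with the authors' mean count of each group, which was not used here. In their processing notes the submitters list limma, STAR 2.7.0e and 3 builds (mm10, GRCm38, GRCh38). Collapse of molecular identifiers and strand at counting are not given in the sources used here. Groups came from the titles and genotypes, which name the columns. The 525 rows without a symbol held 0.094% of counts. Chi-square per degree of freedom was 2.18 to 8.52 between libraries of a group, so none was a copy of another.

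The test was edgeR 4.0.16 in R 4.3.3 (TMM, quasi-likelihood fit on group, Benjamini-Hochberg over the 14730 genes that reached 5 counts in 4 or more libraries). Standard errors are the absolute log2 fold change over the square root of F. CPM use TMM-scaled totals. Alternatives were DESeq2 1.42.0, limma-voom (3.58.1), other scalings, filters of 10 counts or none, the replicate number as a block, leaving out each library, and leaving out replicate 2 of both groups (lens-rich) or Rax-SmoCKO replicates 2 and 3 (Y-linked counts). The scripts were tested on simulated data. Positions and overlaps came from GENCODE M21 on GRCm38, and promoter windows from RefSeq. The members and lists were chosen with earlier results of these data known. Values in each library are given for members at an unadjusted p under 0.05 or without overlap, for the most abundant member of each family, and for Zic2, Ephb1, Ntn1, Robo2, Nrcam, Plxna1 and Sema6d. Other lists are given by up to 3 genes of smallest p.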

Additional observations from a re-analysis of the deposited data

Results flagged for a closer look

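Of 72 groups of 4 values (36 tested genes in each of the groups), 6 had 1 library far from the other 3 by Dixon's criterion, which chance alone meets in about 1 in 20 groups. Rax-SmoCKO replicate 2 stood apart in 3 of them: Sema3c was at 5.38 CPM there and 1.61 to 2.14 CPM in the other Rax-SmoCKO libraries, Plxnd1 was at 23.5 CPM against 11.02 to 12.96 CPM, and Sema4d was lower, at 19.1 CPM against 26.2 to 26.6 CPM. Rax-SmoCKO replicate 4 had 66.5 CPM of Nrn1 and the other Rax-SmoCKO libraries 42.0 to 46.0 CPM. Control replicate 4 had 4.48 CPM of Sema3c and the other controls 0.992 to 1.53 CPM, and 16.2 CPM of Nrp2 against 6.83 to 8.41 CPM in the other controls.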

How the results depend on the processing

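Of the 36 tested members, 28 kept the direction of their log2 fold change under all 17 alternatives, and Unc5d and Sema5b kept it under the 16 in which they could be tested. The number of members called, 0 in edgeR, was 2 with DESeq2, 7 with no filter (Nrp1, Nrp2, Plxnd1, L1cam, Ncam1, Ephb1 and Nrn1) and 1 (Nrn1) with the replicate number as a block, and the genes called in all, 14, were 57, 289 and 38 under the same settings. The cause was not tested. Same-numbered libraries did not deviate together (correlations 0.0915, 0.236, -0.0557 and 0.0398), so the numbers were not taken as pairs. Leaving out each library gave 0 to 0 members called, 25 to 28 above 0 and 12 to 19 genes called. The Zic2 log2 fold change of -0.0018 was 0.0018 with DESeq2's size factors, 0.0060 with library size alone, 0.0017 with DESeq2, 0.00082 with 10 counts and 0.0012 with no filter. Without replicate 2 of both groups (the lens-rich libraries), Slit2 was 0.015, Robo1 -0.0044, Sema3c -0.29 and Sema5a 0.058, and without Rax-SmoCKO replicates 2 and 3 (those with Y-linked counts) Slit2 was 0.049, Robo1 -0.048 and Sema3c -0.018. Leaving out each library, Robo1 ranged from -0.059 to 0.12, Zic2 from -0.058 to 0.038, Slit2 from -0.12 to 0.041, Sema5a from -0.23 to 0.095, Ntn1 from -0.72 to 0.0050 and Sema3c from -0.13 to 1.09. Low members are limited by depth: Slit3 averaged 2.25 counts per Rax-SmoCKO library and 3.5 per control library.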

Other observations

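Genes of intracellular guidance signalling are part of the 96 other guidance and adhesion genes and were already counted there. Among the 24 tested, 16 had a log2 fold change above 0 and 0 were called by edgeR (49.6% and 0.095% of all tested genes). At an unadjusted p under 0.05, 4 were higher and 1 lower (4.8% and 4.68% of all tested genes). Crmp1 and Dpysl3, collapsin response mediator proteins that carry semaphorin signals to the cytoskeleton, had log2 fold changes of 0.33 (adjusted p = 0.322) and 0.25 (adjusted p = 0.332). Farp2, a guanine exchange factor downstream of A-type plexins, had -0.74 (adjusted p = 0.282).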
